A study of Rattus norvegicus with 98 samples.

Results

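Coq10b, Slc25a15, Ppargc1a, Sirt3 and Acsm3 are 5 nuclear genes of mitochondrial metabolism, described here in the nasal epithelium of rats that inhaled formaldehyde or received it into the nostrils. They were selected on how their measured values at 2 and 6 ppm differed from air rats, so the values at 2 and 6 ppm after 6 h and over 5, 8 and 19 days are a description with no test. All probe sets that the array's annotation gives to these genes were taken, 12 of the 31042 tested (5 of 14217 genes): 1 for Coq10b, 6 for Slc25a15, 3 for Ppargc1a, 1 for Sirt3 and 1 for Acsm3. Each gene is followed by its brightest probe set, and the others are given where they differ.

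Messenger RNA was measured on Affymetrix Rat230_2 arrays in 98 male F344/NCrl rats, 8 weeks old, 1 array per rat, so that each replicate was a separate animal. In array set 1, rats inhaled 0 (air), 0.7, 2 or 6 ppm formaldehyde with the whole body, 6 h per day on 5 days per week, and their noses were taken after 6 h or 24 h, or on day 5, 8 or 19. In array set 2, all rats were collected at 6 h. There, 4 rats inhaled 15 ppm and 4 inhaled air, while 4 received 40 ul of 400 mM formaldehyde in each nostril and 4 received distilled water. Groups held 4 rats, except 5 at 2 ppm for 5 days and 5 in air for 8 days. The labels describe cells freed by proteases from the nasoturbinate and lateral meatus in the level II section of the nose, mainly transitional epithelium, with the olfactory part discarded. Epithelial markers were bright, with means of 10.72 to 13.45 log2 units for 6 of 6 genes. Omp, the marker protein of olfactory neurons, nevertheless averaged 11.96, so olfactory tissue was not absent. In such cell mixtures, fewer cells of a type and less RNA per cell cannot be told apart. Array medians lay between 5.94 and 6.07, and the number of animals limits the precision.

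Mitochondria make most of the ATP of a cell by passing electrons along the respiratory chain, in which coenzyme Q is the mobile lipid carrier. Coq10b encodes a protein of the inner membrane that binds coenzyme Q and, as known from its yeast counterpart, is needed for normal respiration. Slc25a15 encodes the carrier that exchanges ornithine for citrulline across that membrane, a step of the urea cycle and of ornithine use. Ppargc1a encodes PGC-1alpha, a coactivator that drives the making of mitochondria and is known in liver and muscle to respond to cAMP. Sirt3 is the main mitochondrial deacetylase, which uses NAD, and Acsm3 is a mitochondrial enzyme that joins medium-chain fatty acids to coenzyme A.

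Upstream sequence is shown for Ppargc1a and Coq10b, the 2 of the 5 genes in which a search for 5 motifs of known response elements found an exact match. The 250 bases before the start of each gene, from RefSeq on the rat build GRCr8, are given 5′ to 3′ on the gene's strand, with matches in capitals. The Ppargc1a window is chr14:63634058-63634307 (plus strand) and the Coq10b window is chr9:64047918-64048167 (plus strand).
Ppargc1a: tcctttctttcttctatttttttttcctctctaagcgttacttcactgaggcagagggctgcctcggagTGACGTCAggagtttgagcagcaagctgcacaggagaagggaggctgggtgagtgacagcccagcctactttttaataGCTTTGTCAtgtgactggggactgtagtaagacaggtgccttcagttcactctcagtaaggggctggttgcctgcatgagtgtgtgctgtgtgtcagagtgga
Coq10b: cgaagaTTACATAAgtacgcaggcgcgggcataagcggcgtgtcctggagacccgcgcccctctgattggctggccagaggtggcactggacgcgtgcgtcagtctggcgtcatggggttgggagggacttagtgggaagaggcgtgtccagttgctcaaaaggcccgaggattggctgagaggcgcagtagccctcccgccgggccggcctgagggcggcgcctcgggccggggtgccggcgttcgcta
The cAMP response element TGACGTCA, to which CREB binds, lay 181 bases before the start of Ppargc1a and occurred in 1.59% of the 33469 promoter windows of the same length. The Coq10b window held TTACATAA, the other strand of the D-box TTATGTAA, 244 bases before the start, and 0.828% of windows hold a D-box. The second run of capitals in Ppargc1a, GCTTTGTCA, matches on the other strand the antioxidant response element core, TGACNNNGC, found in 10.1% of windows. Both strands were searched for these and for the E-box CACGTG (5.59% of windows) and the heat shock element GAANNTTC (7.23% of windows), with no overlap between the matches found. None of the 5 motifs matched in the 250 bases of Slc25a15, Sirt3 or Acsm3. A match is a description of the letters and does not show that a factor binds there.

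After 5 days, Coq10b, Slc25a15 and Ppargc1a were all higher in rats that inhaled 6 ppm than in air rats, and Sirt3 and Acsm3 were not. Coq10b measured 10.13, 9.72, 10.45 and 9.76 log2 units at 6 ppm, against 9.19, 9.40, 9.49 and 9.26 in air rats. The 4 exposed rats lay above the 4 air rats, with means of 10.01 ± 0.34 at 6 ppm and 9.34 ± 0.13 in air (SD, n = 4 each), a 1.60-fold difference. Slc25a15 measured 9.39, 9.26, 8.79 and 8.67 at 6 ppm, against 7.95, 8.07, 8.12 and 8.20 in air rats. This 1.92-fold difference was the widest of the 5 genes in this comparison, and the groups did not overlap. Ppargc1a measured 7.84, 7.90, 7.74 and 7.38 at 6 ppm, against 7.13, 6.95, 7.07 and 6.94 in air rats, a 1.61-fold difference with no overlap. Sirt3 averaged 8.30 ± 0.17 at 6 ppm and 8.50 ± 0.23 in air, and Acsm3 averaged 7.68 ± 0.13 at 6 ppm and 7.75 ± 0.15 in air (SD, n = 4 each), with overlapping groups for both. Of the 12 probe sets, 9 had every 6 ppm rat above every air rat, where 2.44% of all probe sets did. This contrast entered the choice of the genes, so that count is a description.

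**Figure D1:**
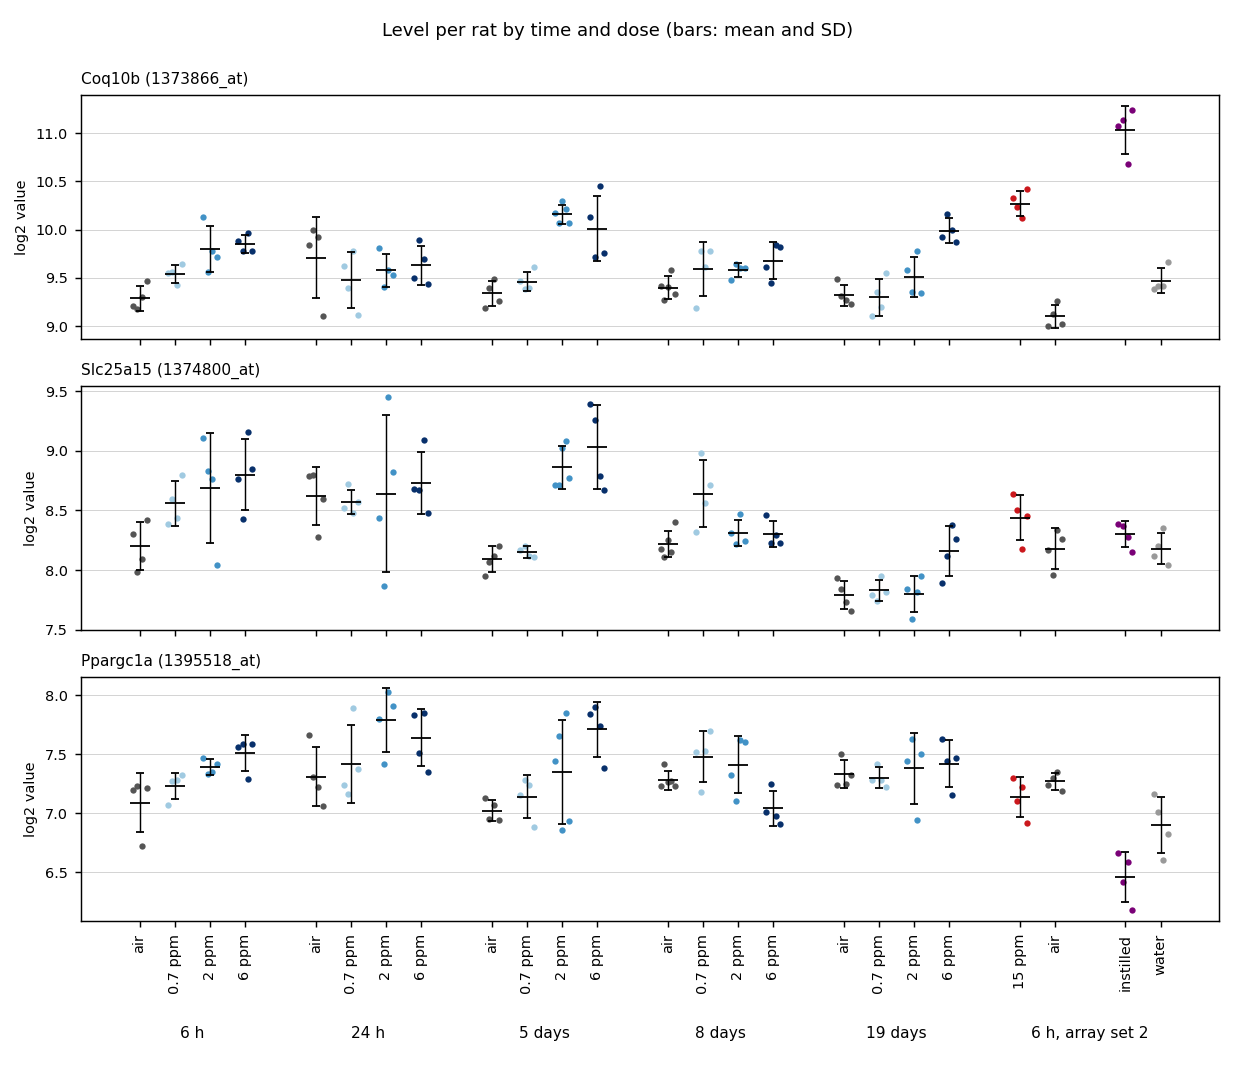
Log2 values of Coq10b, Slc25a15 and Ppargc1a (vertical axes) in every rat of the 24 groups (horizontal axis, by time and dose), with points for rats and bars for the mean and SD. At 5 days the 6 ppm points lie above all air points for the 3 genes, and the instilled rats are the highest for Coq10b (mean 11.03) and the lowest for Ppargc1a (mean 6.46).

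The lower dose of 2 ppm gave a similar picture at 5 days for Coq10b and Slc25a15 and a mixed one for Ppargc1a. Coq10b measured 10.17, 10.07, 10.30, 10.21 and 10.07 in the 5 rats at 2 ppm, against the same 4 air rats, a 1.78-fold difference. All 5 lay above the highest air rat, and their mean of 10.16 ± 0.10 was not below that at 6 ppm. Slc25a15 measured 8.71, 8.71, 9.02, 9.08 and 8.77 at 2 ppm, a 1.71-fold difference from air, again with no overlap. Ppargc1a measured 7.44, 7.65, 6.86, 7.85 and 6.93 at 2 ppm. Of these rats, 3 lay above the air rats and 2 below them. Of the 12 probe sets, 6 had every 2 ppm rat above every air rat, against 1.39% of all probe sets. The comparisons at 2 and 6 ppm share their air rats and are not independent of each other.

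At 8 days the 3 genes differed less from air than at 5 days. Coq10b averaged 9.68 ± 0.19 at 6 ppm and 9.40 ± 0.12 in air, a difference of 0.28 log2 units with overlapping groups (SD, n = 4 and 5). Slc25a15 averaged 8.30 ± 0.11 at 6 ppm and 8.22 ± 0.11 in air. Ppargc1a was the one that lay lower: it measured 7.01, 7.25, 6.98 and 6.91 at 6 ppm, against 7.23, 7.42, 7.26, 7.27 and 7.23 in air, with 3 of 4 exposed rats below every air rat. At 2 ppm the log2 differences from air at 8 days were 0.18 for Coq10b, 0.09 for Slc25a15 and 0.13 for Ppargc1a, all with overlapping groups.

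At 19 days the picture differed again, with Coq10b high and Sirt3 and Acsm3 low at 6 ppm. Coq10b measured 9.92, 10.16, 10.00 and 9.87 at 6 ppm, against 9.49, 9.31, 9.27 and 9.23 in air, a 1.58-fold difference with no overlap. Slc25a15 measured 7.89, 8.12, 8.38 and 8.26 at 6 ppm, against 7.93, 7.84, 7.73 and 7.66 in air, with 1 exposed rat inside the range of air rats. This is probe set 1374800_at, and in 4 other Slc25a15 probe sets every exposed rat lay above every air rat. Ppargc1a averaged 7.42 ± 0.20 at 6 ppm and 7.33 ± 0.12 in air (SD, n = 4 each), with overlap. Sirt3 measured 8.18, 7.95, 7.83 and 7.85 at 6 ppm, against 8.65, 8.90, 8.61 and 8.55 in air. Acsm3 measured 7.63, 7.74, 7.55 and 7.43 at 6 ppm, against 8.34, 8.17, 8.39 and 8.34 in air. Both genes were 0.72 log2 units lower, and in both every exposed rat lay below every air rat. Across the 12 probe sets, 5 lay wholly above air (2.15% of all probe sets) and 2 wholly below (4.62% of all probe sets). At 2 ppm, Acsm3 measured 7.86, 7.95, 7.94 and 7.33, 0.54 log2 units under air and below every air rat. It was 1 of the 12 probe sets wholly below air there, where 2.83% of all probe sets were. Sirt3 was 0.29 log2 units lower at 2 ppm, with 3 of 4 rats below the air rats. Coq10b, Slc25a15 and Ppargc1a differed from air by 0.19, 0.01 and 0.05 log2 units at 2 ppm.

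**Figure D2:**
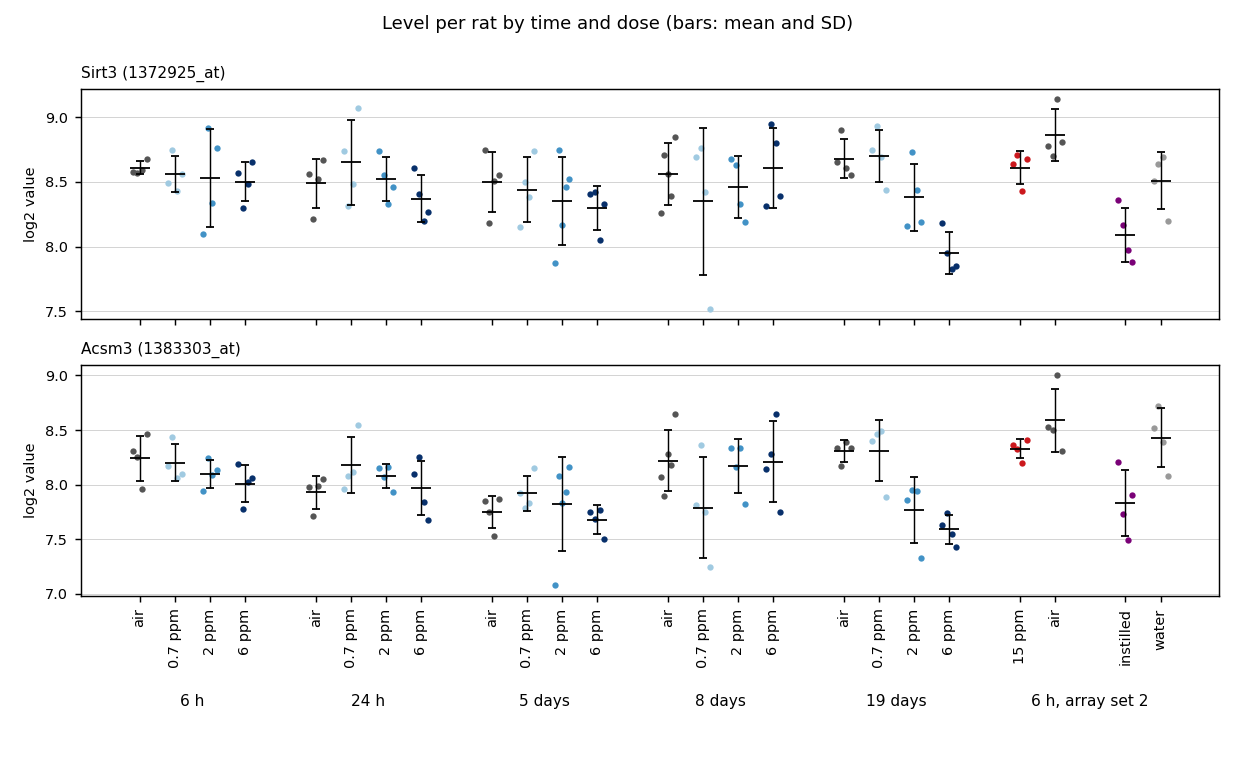
Log2 values of Sirt3 and Acsm3 (vertical axes) in every rat of the 24 groups (horizontal axis, by time and dose), with points for rats and bars for the mean and SD. At 19 days the 6 ppm rats lie below every air rat for both genes, with means of 7.95 for Sirt3 and 7.59 for Acsm3.

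Markers of other cells did not pass the test at 6 ppm at 5 or 19 days, where limma called 0.119% and 0.412% of all probe sets. At 5 days the medians of the marker changes were -0.77 for 7 skeletal muscle genes, -0.87 for 3 lymphocyte genes, -0.36 for 5 olfactory genes, -0.29 for 4 ciliated cell genes and -0.08 for 4 neutrophil genes. At 19 days they were -0.30 for the ciliated cell genes, -0.39 for 5 macrophage and dendritic cell genes, -0.40 for the lymphocyte genes and 0.30 for the olfactory genes. The summed level of the neutrophil genes spanned 9.91 to 13.41 at 6 ppm and 10.21 to 11.53 in air at 5 days. Of the 11 marker lists, the lymphocyte list was the one whose sums did not overlap there, with 7.03 to 7.50 at 6 ppm and 7.70 to 8.66 in air. At 19 days the sums of the macrophage and dendritic cell genes did not overlap, with 11.99 to 12.45 at 6 ppm and 12.59 to 12.92 in air. Those of 5 secretory cell genes did not overlap either, with 14.79 to 14.83 at 6 ppm and 14.85 to 15.01 in air. The sums of the ciliated cell genes overlapped and spanned 11.07 to 11.40 at 6 ppm and 11.28 to 11.80 in air. RNA integrity numbers spanned 7.8 to 8.2 at 6 ppm and 7.7 to 7.9 in air at 5 days, and 8.2 to 8.8 at 6 ppm and 8.3 to 8.5 in air at 19 days. The part of these in the values above was not tested.

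The probe sets of Slc25a15 do not all read alike. At 5 days and 6 ppm, 5 of the 6 lay wholly above air, by 0.82 (1381124_at), 0.94 (1374800_at), 0.96 (1397647_at), 1.20 (1393947_at) and 1.20 (1393342_at) log2 units. The sixth, 1381440_at, measured 3.67, 3.70, 3.83 and 3.84 at 6 ppm, against 3.73, 3.82, 3.72 and 3.77 in air, a difference of 0.00. Its values stayed between 3.57 and 4.24 on all 98 arrays and its group means spanned 0.23 log2 units, while those of the others spanned 1.07 to 1.80. Over the 98 rats the 5 correlated with one another at r = 0.693 to 0.943, and with the sixth at 0.122 to 0.215. These are descriptions across rats that share groups. At 6 ppm and 8 days the 5 probe sets differed from air by -0.08 to 0.16 log2 units, and at 19 days by 0.37 to 0.65. All other Slc25a15 values, where no probe set is named, are those of 1374800_at alone. At 6 ppm and 19 days its difference was the lowest of the 5, and it was the one that overlapped air.

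**Figure D3:**
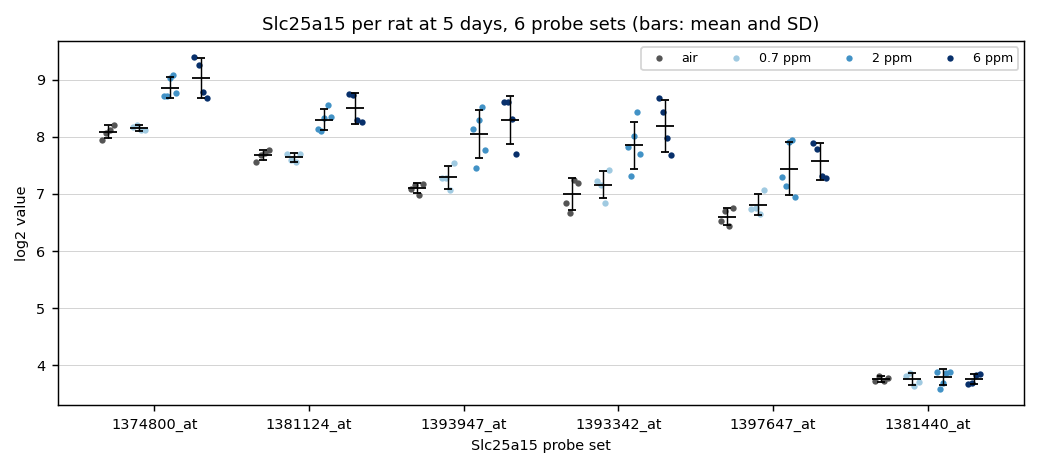
Log2 values (vertical axis) of the 6 Slc25a15 probe sets (horizontal axis) in every rat at 5 days, in air and at 0.7, 2 and 6 ppm, with bars for the mean and SD. For 5 probe sets the 2 and 6 ppm rats lie above the air rats, and the dim 1381440_at stays between 3.59 and 3.89 at these doses.

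The 3 probe sets of Ppargc1a lay 0.69 (1395518_at), 0.66 (1393743_at) and 0.65 (1370089_at) log2 units above air at 6 ppm and 5 days, without overlap in any of them. The last is dim, with 4.57, 4.41, 4.43 and 4.06 at 6 ppm, against 3.78, 3.76, 3.70 and 3.63 in air. Over the 98 rats the first pair correlated at r = 0.835, and the dim probe set correlated with them at 0.497 and 0.434. The lower value of Ppargc1a at 6 ppm and 8 days was seen in both bright probe sets (-0.25 and -0.28) and not in the dim one (0.00).

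**Figure D4:**
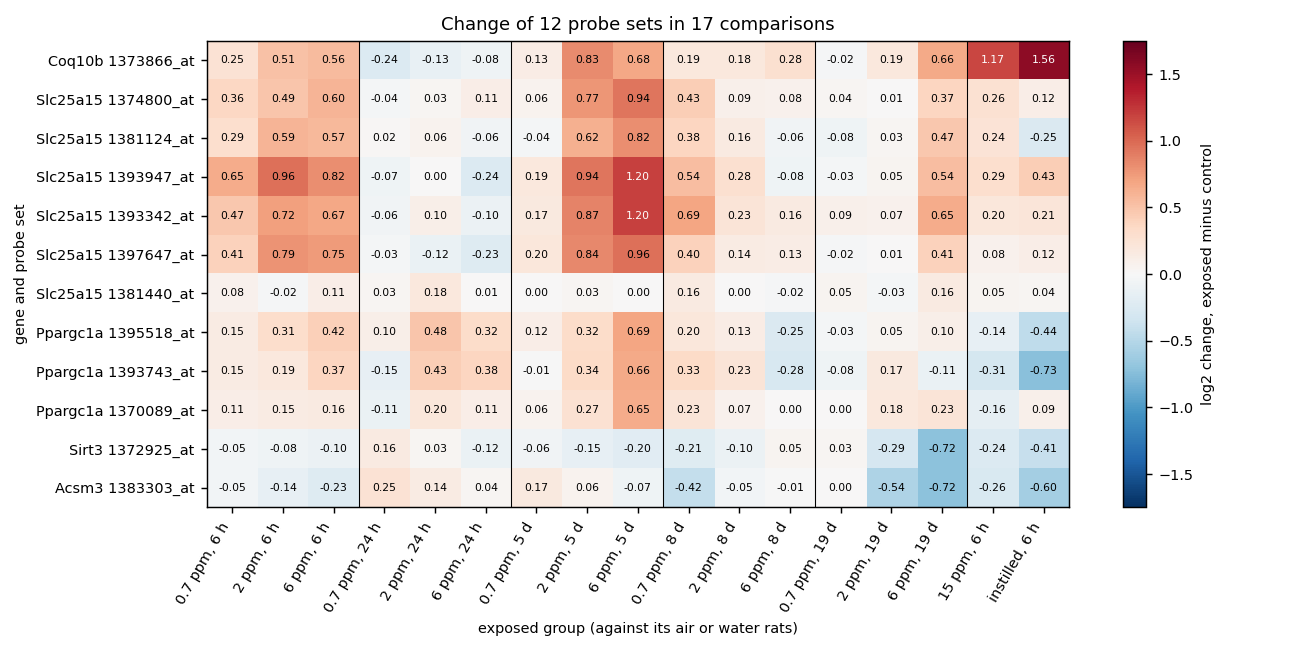
Log2 change, exposed minus control (colour and printed number), of the 12 probe sets (vertical axis) in 17 comparisons with air or water rats (horizontal axis). The columns at 6 ppm and 5 days are red for 9 probe sets, those at 6 ppm and 19 days are blue for Sirt3 and Acsm3 (-0.72 each), and 1381440_at stays between -0.03 and 0.18 throughout.

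After a single exposure of 6 h the values at 6 and 2 ppm were set against the same air rats, and they are a description. Coq10b measured 9.88, 9.78, 9.97 and 9.78 at 6 ppm, against 9.21, 9.18, 9.30 and 9.47 in air. Slc25a15 and Ppargc1a also lay wholly above air there, by 0.60 and 0.42 log2 units, and 8 of the 12 probe sets did, where 4.3% of all probe sets did. At 2 ppm and 6 h, Coq10b measured 10.13, 9.56, 9.78 and 9.72, against the same air rats. The groups did not overlap and differed by 0.51 log2 units. Ppargc1a also lay wholly above air at 2 ppm, by 0.31. Slc25a15 differed by 0.49 to 0.96 in its 5 bright probe sets, and 2 of them lay wholly above air, while 1374800_at gave the lowest difference, with 3 of 4 rats above the air rats. Of the 12 probe sets, 4 lay wholly above air at 2 ppm and 6 h, where 2.06% of all probe sets did.

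At 24 h Coq10b and Slc25a15 at 6 ppm overlapped the air rats. Coq10b averaged 9.63 ± 0.20 at 6 ppm and 9.71 ± 0.42 in air (SD, n = 4 each), a difference of -0.08 with a 95% interval of -0.35 to 0.19. Slc25a15 differed by 0.11 (interval -0.22 to 0.45). Ppargc1a measured 7.83, 7.51, 7.85 and 7.35 at 6 ppm, against 7.66, 7.31, 7.22 and 7.06 in air, a difference of 0.32 ± 0.15 (SE) that did not pass (adjusted p = 0.62, limma). At 2 ppm and 24 h Ppargc1a was 0.48 ± 0.15 log2 units higher (SE), which did not pass either (adjusted p = 0.556, limma), and its mean of 7.79 ± 0.27 (SD, n = 4) was the highest of its 24 groups. Limma called 0 of 12 probe sets at 6 ppm and 24 h (0.00322% of all probe sets). There 1 had an unadjusted p under 0.05 (2350 of all). At 2 ppm and 24 h it called 0 of 12 (0% of all probe sets), with 3 at an unadjusted p under 0.05 (1751 of all).

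At 0.7 ppm no member was called at any time. At 6 h, 5, 8 and 19 days this dose was set against air rats that also served in the comparisons that chose the genes. Limma called 0 of 12 probe sets at 6 h, 24 h, 8 days and 19 days (0% of all probe sets at each) and 0 of 12 at 5 days (0.00644% of all probe sets). An unadjusted p under 0.05 was reached by 4 of the 12 at 6 h, beside 409 of all 31042 probe sets. At 8 days it was reached by 6, beside 1021 of all, and at the other times by 0. Slc25a15 held 4 of these probe sets at 6 h and 5 of them at 8 days. Coq10b at 5 days averaged 9.46 ± 0.10 at 0.7 ppm and 9.34 ± 0.13 in air (SD, n = 4 each), a difference of 0.13 with an interval of -0.14 to 0.40. Slc25a15 at 8 days measured 8.32, 8.98, 8.56 and 8.71 at 0.7 ppm, against 8.18, 8.11, 8.25, 8.15 and 8.40 in air. In this probe set, 1374800_at, 3 of the 4 exposed rats lay above the air rats (adjusted p = 1, limma). The 5 bright probe sets of the gene differed by 0.38 to 0.69, and 2 of them lay wholly above air, where 0.438% of all probe sets did. At 6 h the 5 differed by 0.29 to 0.65, with 1 wholly above air (1.68% of all probe sets). Acsm3 at 8 days was 0.42 log2 units lower at 0.7 ppm, with 3 of 4 rats below every air rat (adjusted p = 1, limma). The interval of that difference was -0.75 to -0.09.

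At the strongest exposures, collected at 6 h, Coq10b rose, while no rise was called for Slc25a15 or Ppargc1a. Coq10b measured 10.33, 10.23, 10.12 and 10.42 in 15 ppm rats, against 9.0, 9.13, 9.26 and 9.02 in the air rats of the same array set. It rose 2.25-fold (1.17 ± 0.14 log2 units, SE, adjusted p = 3.71e-10, limma), in 4 of 4 rats. After instillation it measured 11.07, 11.14, 10.68 and 11.24 in formaldehyde rats, against 9.38, 9.42, 9.42 and 9.66 in water rats. There it rose 2.95-fold (1.56 ± 0.14, SE, adjusted p = 1.58e-15, limma). Its mean of 11.03 ± 0.25 after instillation was the highest of the 24 groups and exceeded the next, 10.27 ± 0.13 at 15 ppm, by 0.76, more than either SD.

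Slc25a15 averaged 8.44 ± 0.19 at 15 ppm and 8.18 ± 0.17 in air (SD, n = 4 each). The difference of 0.26 had an interval of -0.07 to 0.59 (adjusted p = 0.415, limma). After instillation it differed by 0.12, with an interval of -0.21 to 0.46 (adjusted p = 0.666, limma). The other bright probe sets gave -0.25 to 0.43 after instillation, none called. Ppargc1a measured 7.30, 7.10, 7.22 and 6.92 at 15 ppm, against 7.24, 7.30, 7.35 and 7.19 in air (difference -0.14, interval -0.44 to 0.17, adjusted p = 0.704, limma). After instillation it measured 6.66, 6.42, 6.59 and 6.18 in formaldehyde rats, against 7.16, 7.01, 6.60 and 6.82 in water rats. It fell by 0.44 ± 0.15 on the log2 scale (SE, adjusted p = 0.0297, limma), with 3 of 4 formaldehyde rats below every water rat. Its second probe set, 1393743_at, fell by 0.73 ± 0.20 (SE, adjusted p = 0.00522, limma), and the dim 1370089_at differed by 0.09 (adjusted p = 0.716, limma). The call on 1395518_at ends when any 1 of 4 rats is left out: the change is then -0.42 without instilled rat 369 (adjusted p = 0.0607, limma), -0.34 without instilled rat 374 (adjusted p = 0.158, limma), -0.35 without water rat 352 (adjusted p = 0.135, limma) and -0.40 without water rat 354 (adjusted p = 0.0846, limma).

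Acsm3 measured 8.21, 7.73, 7.49 and 7.91 in instilled rats, against 8.52, 8.72, 8.39 and 8.08 in water rats. It fell by 0.60 ± 0.18 on the log2 scale (SE, adjusted p = 0.00788, limma). The call ends without instilled rat 372 (-0.48, adjusted p = 0.0523, limma) or without water rat 354 (-0.50, adjusted p = 0.0524, limma). Sirt3 averaged 8.09 ± 0.21 in instilled rats and 8.51 ± 0.22 in water rats (SD, n = 4 each), a difference of -0.41 ± 0.18 (SE) that did not pass (adjusted p = 0.0804, limma). It passes without instilled rat 365 (-0.50, adjusted p = 0.0463, limma) or without water rat 356 (-0.52, adjusted p = 0.0381, limma). At 15 ppm Sirt3 and Acsm3 differed from air by -0.24 and -0.26, neither called (adjusted p = 0.481 and 0.445, limma). In all, limma called 1 of 12 probe sets at 15 ppm, where it called 8.49% of all probe sets. After instillation it called 4 of 12, where it called 22.2%, and neither count is read as a result about the members.

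Both strong exposures also raised neutrophil markers, 4 of 4 in each, with medians of 1.73 at 15 ppm and 2.48 after instillation. Their summed level spanned 11.81 to 12.09 at 15 ppm and 9.51 to 10.36 in air, and 12.88 to 13.78 in instilled rats and 10.40 to 11.20 in water rats. Foxj1, the regulator of ciliated cells, fell by 0.66 ± 0.21 after instillation (SE, adjusted p = 0.0125, limma), 1 of 4 ciliated cell markers to do so. Their summed level spanned 11.13 to 11.32 in instilled rats and 11.56 to 11.96 in water rats. After instillation Cd68, a macrophage marker, and Cd3e, a T cell marker, rose by 0.65 and 0.74, and Col1a1, a collagen of stromal cells, fell by 0.81. Summed lymphocyte markers spanned 8.02 to 8.12 in instilled rats and 7.35 to 7.53 in water rats, and summed stroma and vessel markers 12.72 to 13.10 in instilled rats and 13.22 to 13.81 in water rats. At 15 ppm the epithelial keratins Krt8 and Krt18 rose by 0.34 and 0.33. Summed olfactory markers spanned 10.03 to 11.43 in instilled rats and 10.38 to 12.41 in water rats. RNA integrity numbers spanned 8.3 to 8.4 in instilled rats and 7.5 to 8.3 in water rats, and 7.7 to 8.2 at 15 ppm and 7.3 to 7.8 in air. The part of these in the changes of the 5 genes was not tested.

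The 2 routes were compared directly as the 15 ppm change minus the instillation change. Coq10b differed by -0.39 ± 0.19 (SE, interval -0.77 to -0.01, adjusted p = 0.503, limma). Ppargc1a differed by 0.30 ± 0.22 (SE, adjusted p = 0.747, limma) and Acsm3 by 0.34 ± 0.25 (SE, adjusted p = 0.756, limma). Limma called 0 of 12 probe sets (0.879% of all probe sets), with 2 at an unadjusted p under 0.05 (3030 of all). Water itself was set against air of the same array set. Coq10b measured 9.38 to 9.66 in water rats and 9.0 to 9.26 in air rats, 0.37 ± 0.14 higher (SE, adjusted p = 0.341, limma). Ppargc1a and Sirt3 were 0.37 and 0.35 log2 units lower, with every water rat below every air rat (adjusted p = 0.386 and 0.482, limma). Across the 12 probe sets, 1 lay wholly above air (5.3% of all probe sets) and 3 wholly below (4.54%). Limma called 0 of them (0.0129% of all probe sets), with 4 at an unadjusted p under 0.05 (3216 of all). Between the air rats of array set 2 and those of array set 1 at 6 h it called 0 of 12 (4.7% of all probe sets). There 3 had an unadjusted p under 0.05 (5385 of all). Each exposed group is therefore set against the controls of its own array set.

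Levels in air rats are given as a description, since these rats were the controls of the comparisons that chose the genes. Slc25a15 (1374800_at) averaged 8.20, 8.62, 8.09, 8.22 and 7.79 log2 units in air at 6 h, 24 h, 5, 8 and 19 days, a range of 0.83. Its probe set 1381124_at was also lowest at 19 days (7.43). In 1393947_at, 1393342_at and 1397647_at the lowest air mean was at 8 days (6.73, 6.59 and 6.50), with ranges of 1.20, 1.23 and 1.02. Coq10b averaged 9.29, 9.71, 9.34, 9.40 and 9.32, a range of 0.42, and Acsm3 averaged 8.24, 7.93, 7.75, 8.22 and 8.31, a range of 0.56. The ranges were 0.31 for Ppargc1a and 0.18 for Sirt3. The air mean of Slc25a15 at 24 h, 8.62, was within 0.41 log2 units of its highest group mean, 9.03 at 6 ppm and 5 days.

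Ordered by level, neighbouring groups mostly did not differ beyond their spread. For Coq10b, 3 of the 23 gaps between neighbouring group means exceeded the larger of the 2 SDs, for Slc25a15 1, for Ppargc1a 1, and for Sirt3 and Acsm3 0. Coq10b was highest after instillation, at 15 ppm, at 2 ppm for 5 days, at 6 ppm for 5 days and at 6 ppm for 19 days, in that order, and lowest in the air rats of array set 2. Slc25a15 (1374800_at) was highest at 6 ppm for 5 days (9.03) and lowest in air at 19 days (7.79). Its other bright probe sets were also highest at 6 ppm for 5 days but had their lowest means in other groups. Sirt3 and Acsm3 were lowest at 6 ppm for 19 days and highest in the air rats of array set 2. Over the 24 group means, Sirt3 and Acsm3 correlated at r = 0.834. Coq10b and Slc25a15 correlated at 0.39 over the 24 means and at 0.684 over the 20 of array set 1, and Ppargc1a with Coq10b at -0.308 and 0.428. These means share array set and time, and the correlations are descriptions.

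Among 3772 genes whose group means varied, those most like each gene were found by the correlation of the 24 group means. Nearest to Coq10b were Slc38a2, an amino acid transporter (r = 0.898), Map3k6, a kinase of a stress pathway (0.889), and Oser1 (0.872). Slc38a2 was 0.22 log2 units higher at 6 ppm and 5 days and 0.59 higher at 6 ppm and 19 days. It was 0.42 higher at 15 ppm and 0.83 higher after instillation. Nearest to Sirt3 were Frmpd2 (0.926), Hdc, the enzyme that makes histamine (0.898), and Cimap1a (0.884). Nearest to Acsm3 were Ano4 (0.914), LOC102555109 (0.908) and Ptgs1, a prostaglandin synthase (0.89). These 6 genes were 0.63 to 0.82 log2 units lower at 6 ppm and 19 days. That group is among the 24 means by which they were picked, so a fall there follows in part from the choice. Nearest to Ppargc1a were Pdzrn3 (0.812), Psd3 (0.795) and Ptprm, a receptor phosphatase (0.79). Slc25a15 had the weakest likeness, with Zfp628 (0.73), Selenon, a selenoprotein (0.718), and Zswim8 (0.669).

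Genes of the pathways around the 5 genes were followed in 8 lists with 97 measured genes, chosen with earlier results known. At 6 ppm and 5 days limma called 0 of the 97 (0.119% of all probe sets), with changes from -0.65 to 0.60. An unadjusted p under 0.05 was reached by 9 of the 97 and by 2248 of all 31042 probe sets. The median change was 0.00, and it was -0.01 over all genes. At 6 ppm and 19 days 1 of 97 was called, where limma called 0.412% of all probe sets. This was Idh2, a mitochondrial enzyme that Sirt3 is known to deacetylate, which fell by 0.38 ± 0.10 on the log2 scale (SE, adjusted p = 0.0457, limma). Of the 8 other genes listed as Sirt3 targets, none was called there, and the median of the 9 was -0.05. At 19 days 20 of the 97 had an unadjusted p under 0.05, 16 lower and 4 higher, beside 3678 of all 31042 probe sets. The 11 genes listed for coenzyme Q synthesis differed by -0.54 to -0.04 there, and none was called. Their median was -0.15, beside -0.02 over all genes.

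At 15 ppm 7 of the 97 genes rose and 8 fell, and after instillation 16 rose and 19 fell (20 and 12 with cyclic loess between arrays). Over all 14217 genes, 5.23% rose and 5.86% fell at 15 ppm, and 11.1% rose and 15.1% fell after instillation, which is the background for each list, and no list was tested against it. Of 11 genes listed for coenzyme Q synthesis, 3 fell and none rose at 15 ppm, where 5.86% of all genes fell. These were Pdss2, which builds the side chain of coenzyme Q (-0.54 ± 0.11), Coq2, which attaches that chain (-0.40 ± 0.10), and Coq8a, an atypical kinase (-0.80 ± 0.17, SE). After instillation, where 15.1% of all genes fell, 4 fell and 1 rose: Pdss2, Coq2, Coq8a and Coq9 fell by 0.71, 0.35, 0.69 and 0.40, and Coq5 rose by 0.37. The list's median was -0.15 in both comparisons, beside -0.02 and 0.00 over all genes. In the same rats Coq10b itself rose, as given above. The list also holds Coq10a, a relative of Coq10b and not itself a gene of synthesis. Coq10a differed by 0.08 at 15 ppm, by -0.15 after instillation and by -0.08 at 6 ppm and 5 days, and was not called.

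Genes of the urea cycle and of ornithine use rose in 2 of 10 cases at 15 ppm and in 6 of 10 after instillation, and none fell, where 5.23% and 11.1% of all genes rose. Odc1, which turns ornithine into putrescine, rose by 0.79 ± 0.10 at 15 ppm (SE, adjusted p = 3.75e-09, limma) and by 0.69 ± 0.10 after instillation (SE, adjusted p = 3.98e-08, limma). Arg2, the mitochondrial arginase that makes ornithine, rose by 0.95 ± 0.19 at 15 ppm and by 1.18 ± 0.19 after instillation (SE). Arg1, the cytosolic arginase, rose by 2.53 ± 0.45 after instillation (SE), and Asl, a step of the urea cycle, rose by 0.38. Arg1 is also known from white blood cells. Neutrophil markers rose in the same rats, and their part in these changes was not tested.

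Other carriers of the Slc25 family fell in 4 of 27 cases at 15 ppm and in 7 of 27 after instillation, while 1 rose in each, where 5.86% and 15.1% of all genes fell. Slc25a13 and Slc25a12, the aspartate and glutamate carriers, fell by 0.81 and 0.42 at 15 ppm and by 0.98 and 0.35 after instillation. Slc25a10 and Slc25a11, carriers of dicarboxylates and of oxoglutarate, fell by 0.68 and 0.24 at 15 ppm and by 0.84 and 0.21 after instillation. Slc25a36 and Slc25a42 fell after instillation by 0.55 and 0.41. Slc25a25, an ATP-magnesium carrier, rose by 0.73 ± 0.15 at 15 ppm, and Slc25a38, a glycine carrier, rose by 0.27 ± 0.09 after instillation (SE).

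In the PGC-1 family, Pprc1, a relative of Ppargc1a that responds to growth signals, rose by 1.12 ± 0.17 at 15 ppm (SE, adjusted p = 8.47e-07, limma) and by 0.86 ± 0.17 after instillation (SE, adjusted p = 4.66e-05, limma). Ppargc1b, the closest relative and named here for that, differed by 0.16 and -0.06 and was not called. Of the 16 genes of this list, Ppara fell at 15 ppm by 0.30. After instillation Twnk and Tfam, nuclear genes whose proteins act on mitochondrial DNA, rose by 0.59 and 0.28, and Pparg and Gabpa fell by 0.63 and 0.35. Genes linked to cAMP, which is known to induce Ppargc1a elsewhere, rose in 3 of 12 cases at 15 ppm and in 4 of 12 after instillation, where 5.23% and 11.1% of all genes rose. Crem, a factor of the cAMP response, rose by 0.65 at 15 ppm and by 2.09 after instillation, and Nr4a2 by 1.80 and 1.16. Pdk4, a kinase that holds back pyruvate use, rose by 1.37 and 1.91, and Nr4a3 rose by 2.14 after instillation. Prkaa2 and Prkaa1, the catalytic subunits of AMPK, fell after instillation by 1.24 and 0.35.

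Among 5 other sirtuins none was called at 15 ppm (1 at an unadjusted p under 0.05), and Sirt2 and Sirt4 fell after instillation, by 0.37 and 0.30. Of the 9 genes listed as Sirt3 targets, which include the cytosolic Acss2 in place of its mitochondrial relative Acss1, none was called at 15 ppm (3 at an unadjusted p under 0.05). After instillation Sod2, the mitochondrial superoxide dismutase, rose by 1.05 ± 0.18, and Idh2 and Sdha fell by 0.51 and 0.23. Of the 7 acyl-CoA synthetases related to Acsm3, limma called 0 in either comparison, with 0 at 15 ppm and 2 after instillation at an unadjusted p under 0.05. Their medians were -0.09 and -0.13.

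**Figure D5:**
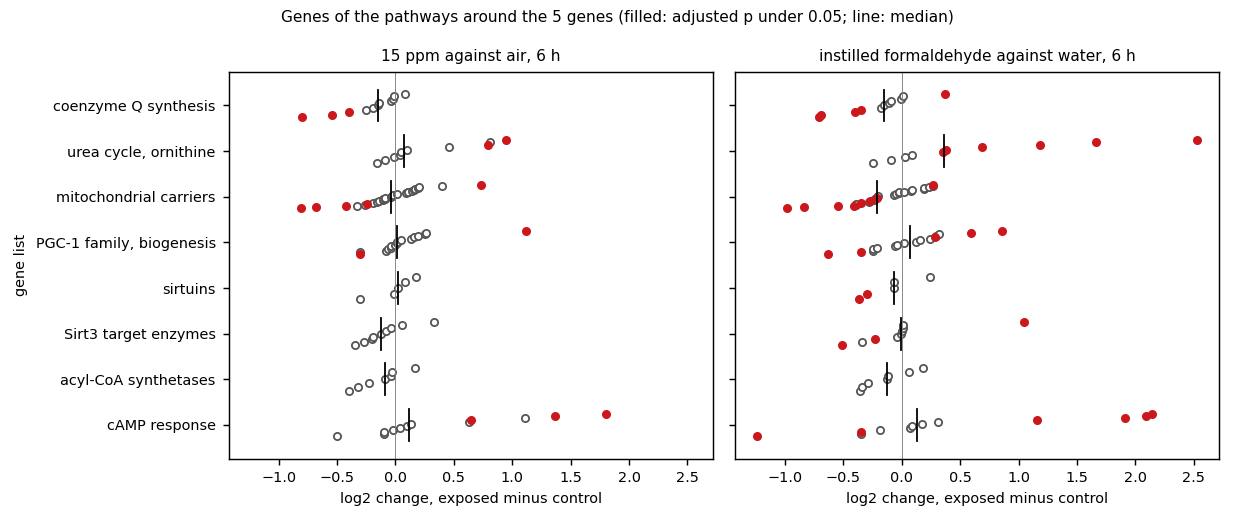
Log2 change, exposed minus control (horizontal axes), of the 97 genes of 8 lists (vertical axis) at 15 ppm against air (left) and after instillation against water (right). Filled points are called at an adjusted p under 0.05, open points are not, and lines mark list medians, which lie between -0.21 and 0.36.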

How the data were processed

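The authors' deposited values are log2 signals of 31099 probe sets on 98 arrays, and the scale was read from the values. For the normalization, a method was not given in the sources used. After 57 Affymetrix control probe sets were left out, 31042 were tested. Groups followed dose, route, time and array set on the labels (24 groups); the 0.7 ppm rats at 8 days carry 0.07 ppm in 1 field and 0.7 ppm elsewhere, and 0.7 ppm was used. Symbols came from the array annotation, updated by gene identifier to RefSeq GRCr8: 20826 probe sets had 1 symbol, 436 several and 9780 none. The probe set with the highest mean stood for a gene.

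A linear model with 1 coefficient per group was fitted in limma 3.58.1 (R 4.3.3) to all arrays, with 74 residual degrees of freedom. P values were two-sided and adjusted by Benjamini-Hochberg over 31042 probe sets within a comparison, with calls at an adjusted p under 0.05. Changes are exposed minus control. Errors are SDs between rats or the model's SE, as stated. The code was tested on simulated data. Named genes were all probe sets of the 5 genes, the 3 genes most like each, by correlation of group means (SD of group means at least 0.2), and up to 4 called members per list, with every member of a count of 5 or fewer.

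The members, lists and tests were chosen with earlier results of these data known. Tests planned at 2 ppm at 6 h and over 5, 8 and 19 days, and of air levels over the 5 times, are not given, since those values may have entered the choice or were its controls. Alternatives were other probe sets, cyclic loess, median scaling, the same array set only, array weights, a trended and robust prior, a filter on dim probe sets (highest group mean of at least 6), air rats of array set 1, and leaving out each rat.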

Additional observations from a re-analysis of the deposited data

Results flagged for a closer look

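Each of the 5 genes was looked at in each of the 24 groups, which gives 120 sets of values from the same rats. In 6 of the 120 sets 1 rat stood apart from the others of its group, and chance gives about 5% of such sets. Coq10b was 9.66 in water rat 356, with the others at 9.38 to 9.42. Ppargc1a was 7.29 in rat 286 at 6 ppm and 6 h, with the others at 7.56 to 7.59. It was 6.72 in air rat 52 at 6 h, with the others at 7.20 to 7.23, and 7.42 in air rat 65 at 8 days, with the others at 7.23 to 7.27. Acsm3 was 7.89 in rat 156 at 0.7 ppm and 19 days, with the others at 8.40 to 8.49, and 7.33 in rat 234 at 2 ppm and 19 days, with the others at 7.86 to 7.95.

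Each of the 5 genes was searched at 0.7, 2 and 6 ppm, over every pair of the 5 times, for opposite moves in every exposed rat. Ppargc1a (1395518_at) moved in opposite directions at 6 ppm at different times, in every exposed rat relative to its air mean. Its change of -0.25 at 8 days lay 0.67 below that of 0.42 at 6 h, 0.57 below that of 0.32 at 24 h and 0.94 below that of 0.69 at 5 days. These differences share the rats at 8 days and were not tested. The dim probe set 1370089_at did not show the lower value at 8 days, as given above.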

How the results depend on the processing

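Of 614 values under the alternatives, 582 kept their direction and side of the threshold or moved by less than 1 SD. Coq10b was called under each: 0.98 to 1.23 at 15 ppm and 1.56 to 1.64 after instillation, and 1.12 to 1.22 and 1.49 to 1.68 with 1 rat left out. For Slc25a15, probe set 1381124_at gave -0.25 after instillation, and at 6 ppm and 5 days 1393947_at and 1393342_at gave 1.20 each and 1381440_at gave 0.00. Ppargc1a after instillation was 0.09 in 1370089_at, -0.33 with cyclic loess (adjusted p = 0.12, limma) and -0.41 with array weights (adjusted p = 0.0853, limma). Leaving out 1 rat gave -0.54 to -0.34 for Ppargc1a, -0.72 to -0.48 for Acsm3 and -0.52 to -0.34 for Sirt3 after instillation. Sirt3 after instillation passed when fitted to its own array set (-0.41, adjusted p = 0.0361, limma). Against air rats of array set 1, the 15 ppm differences were 0.05 for Ppargc1a, 0.01 for Sirt3 and 0.09 for Acsm3. With cyclic loess, the range of Acsm3 in air stayed at 0.56, while 20 related genes rose and 12 fell after instillation, beside 16 and 19 as reported. At 0.7 ppm and at 6 ppm and 24 h, limma called 0 of the 5 genes under each alternative run. The causes of these shifts were not tested. On the dim probe sets, 2 of 12, signal near background limits what can be seen. No paired analysis was possible because every rat has a single array and its number is its own.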
